A study of Mus musculus with 6 samples.

Results

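The genes described here are 46 mouse genes of germ cells, meiosis and the pluripotent embryo, most of them known as genes that promoter methylation keeps silent in somatic cells. They were taken from a list of symbols, and every probe set that the platform annotation assigned to a single member symbol was kept, however dim. This gave 56 probe sets for 42 genes, out of 45037 probe sets that were not controls. Tdrd6, Nanos2, Nanos3 and Tuba3a had no probe set of their own. The members fell into 5 groups by role: the piRNA pathway, the meiotic chromosome axis with synapsis and recombination, germ cell fate factors, other testis genes, and genes of pluripotent cells and the early embryo.

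AtT-20 is a mouse pituitary tumour line of corticotroph type that makes pro-opiomelanocortin. The siDNMT1 group received 20 nM siRNA against Dnmt1, given repeatedly over 8 days, and the siNT group received a non-targeting siRNA at the same dose for the same time. Total RNA of each culture was hybridised to 1 Affymetrix mouse array, and the procedure was carried out 3 times, which gave 3 siDNMT1 and 3 siNT arrays that share the repeat numbers 1 to 3. No untransfected culture was among the 6 arrays, and siRNA lowers a transcript without deleting the gene. An array reads the RNA of the whole culture, so a few cells with much transcript and many cells with little cannot be told apart.

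Germline genes of this kind carry promoters rich in CpG, the dinucleotide at which mammalian DNA is methylated. Their promoters gain methylation at about the time of implantation, through Dnmt3b, and Dnmt1 copies the marks at each replication. A second layer of silencing is the variant Polycomb complex that holds E2f6 and the pair Mga and Max, which bind E2F sites and E boxes. In germ cells the same genes build the piRNA machinery that silences transposons, the synaptonemal complex that joins homologous chromosomes, and the recombination enzymes of meiosis.

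The promoter windows of the RefSeq table (GRCm38.p6, 250 bases before and 50 bases after a gene's start) covered 35 of the 46 members. Where a gene had several starts, the window with the most CpG was taken, for members and for all genes alike. The member windows held a median of 18 CpG, against 8 over the 27025 genes of the table, and 65.7% of member windows had an observed over expected CpG ratio of at least 0.6, against 38.3% of all windows. The E box, searched as CACGTG, which reads alike on both strands, stood in 15 of 35 member windows (42.9%), against 7.39% of all windows. The E2F motif, searched as TCCCGC on both strands, stood in 14 member windows (40%), against 21.1% of all windows. Both motifs were present in 7 member windows (20%) and in 2.19% of all windows, and they overlapped in 0 of the 35 member windows. Among windows with the higher CpG ratio the E box was in 56.5% of the members and in 11.3% of all genes, and the E2F motif in 52.2% and 43.7%. These are matches of letters and no measurement of binding or methylation, which the arrays do not give.

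The 250 bases before the start are shown for 7 members, 5′ to 3′ on the gene's own strand, with each CpG in capitals. Ddx4, Mael and Slc25a31 stand for the CpG-rich type with an E box. Stk31 (on 1 of its probe sets), Tex101, Sycp2 and Syce1 are members whose siDNMT1 and siNT signals did not overlap and differed by at least 1.5-fold. Not shown are Sycp1, which did not overlap but fell short of 1.5-fold and has both motifs in its window, and Oaz3, which had no window. In Ddx4 (chr13:112652311-112652560, minus strand) there were 31 CpG, with the E box 29 bases and the E2F motif 136 bases before the start. In Mael (chr1:166238745-166238994, minus strand) there were 18 CpG, with the E box 223 and an E2F motif 143 bases before the start. In Slc25a31 (chr3:40708621-40708870, plus strand) there were 18 CpG and an E box 93 bases before the start.
Ddx4: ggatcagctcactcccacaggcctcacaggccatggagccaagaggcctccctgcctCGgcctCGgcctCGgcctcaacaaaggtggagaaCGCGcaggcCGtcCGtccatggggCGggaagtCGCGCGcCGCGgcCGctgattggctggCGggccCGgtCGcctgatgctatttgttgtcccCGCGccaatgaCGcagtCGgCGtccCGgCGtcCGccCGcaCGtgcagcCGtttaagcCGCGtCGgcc
Mael: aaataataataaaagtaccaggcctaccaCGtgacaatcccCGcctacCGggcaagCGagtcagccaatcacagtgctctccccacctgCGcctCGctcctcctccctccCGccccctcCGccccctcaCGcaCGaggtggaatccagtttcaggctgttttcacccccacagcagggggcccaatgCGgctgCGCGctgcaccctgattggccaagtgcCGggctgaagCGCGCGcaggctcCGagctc
Slc25a31: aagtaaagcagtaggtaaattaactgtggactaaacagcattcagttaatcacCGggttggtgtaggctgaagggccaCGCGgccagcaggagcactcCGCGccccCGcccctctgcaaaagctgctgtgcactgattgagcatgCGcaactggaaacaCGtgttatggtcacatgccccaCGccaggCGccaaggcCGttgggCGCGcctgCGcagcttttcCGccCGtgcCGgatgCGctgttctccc
In Stk31 (chr6:49395289-49395538, plus strand) there were 21 CpG and an E box 55 bases before the start. The other 3 had 0 E boxes and 0 E2F motifs in these 250 bases, with 14 CpG in Tex101 (chr7:24672051-24672300, minus strand), 7 in Sycp2 (chr2:178407659-178407908, minus strand) and 13 in Syce1 (chr7:140787855-140788104, minus strand).
Stk31: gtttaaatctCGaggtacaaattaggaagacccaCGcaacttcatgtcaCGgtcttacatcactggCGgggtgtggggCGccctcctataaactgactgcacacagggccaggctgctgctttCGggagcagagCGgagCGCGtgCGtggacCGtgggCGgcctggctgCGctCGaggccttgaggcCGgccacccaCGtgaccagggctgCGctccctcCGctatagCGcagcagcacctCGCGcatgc
Tex101: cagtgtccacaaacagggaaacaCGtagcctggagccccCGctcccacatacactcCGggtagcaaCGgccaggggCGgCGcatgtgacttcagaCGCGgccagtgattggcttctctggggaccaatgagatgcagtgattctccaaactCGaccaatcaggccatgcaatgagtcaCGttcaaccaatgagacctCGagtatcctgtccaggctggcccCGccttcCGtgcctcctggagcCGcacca
Sycp2: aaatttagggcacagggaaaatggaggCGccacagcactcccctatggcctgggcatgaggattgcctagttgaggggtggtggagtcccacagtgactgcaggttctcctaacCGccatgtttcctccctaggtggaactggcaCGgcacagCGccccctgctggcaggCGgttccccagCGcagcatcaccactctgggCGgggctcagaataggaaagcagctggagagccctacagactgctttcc
Syce1: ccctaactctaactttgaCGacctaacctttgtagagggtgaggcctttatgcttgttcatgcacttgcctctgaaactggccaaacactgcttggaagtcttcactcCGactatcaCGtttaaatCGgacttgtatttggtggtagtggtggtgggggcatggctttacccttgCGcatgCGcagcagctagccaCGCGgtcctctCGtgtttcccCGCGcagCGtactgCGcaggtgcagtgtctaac

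Signals are linear array intensities, scaled so that every array had the same median, 25.4 units. Differences are siDNMT1 minus siNT on the log2(scaled signal + 5.29) scale, so a change of a dim probe set comes out smaller than its true ratio. Dnmt1, the targeted gene, had 214, 142 and 301 units in siDNMT1 and 541, 701 and 619 units in siNT cells on its brightest probe set, so that siDNMT1 arrays kept 39.6%, 20.2% and 48.6% of the siNT signal of repeats 1, 2 and 3. The groups did not overlap, and the difference was -1.54 (SE 0.24), with -1.81 and -1.75 on the other probe sets. Its limma adjusted p was 0.446 over all probe sets and 0.0211 with the repeat number as a block and dim probe sets left out, and the two-sided exact permutation p was 0.1, the smallest that 3 against 3 arrays allow. The 8 corticotroph markers were all above array background in both groups, with Crhr1 at -0.36 (SE 0.18), Neurod1 at -0.35 (SE 0.18) and Scg2 at -0.28 (SE 0.16). The list of gonadal somatic cells had 2 of 9 markers above it in both groups, Gata4 and Star, with summed signals of 257 to 341 in siDNMT1 and 298 to 363 in siNT arrays, and the fibroblast list had 1 of 6, Col1a2, with 160 to 199 in siDNMT1 and 129 to 174 in siNT arrays. Their 3 smallest p-values each were those of Dhh at 1.09 (SE 0.50), Gata4 at -0.28 (SE 0.17) and Amh at -0.46 (SE 0.31), and of Pdgfra at 1.26 (SE 0.48), Col3a1 at -0.66 (SE 0.49) and Lum at 0.41 (SE 0.42), none past the threshold. Their part in the results was not tested. Deposited medians ran from 19.8 to 36.3 units, with both arrays of repeat 2 the brightest.

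On probe sets with a single symbol, the germline and meiosis genes lay at the background of the arrays in both groups. After 8 days of Dnmt1 siRNA 1 such probe set, of Oaz3, was above it. The 2 probe sets shared by Tuba3a and Tuba3b, which were not counted, lay above it in both groups, at 202 to 575 units. The background was read from 80 probe sets of olfactory and vomeronasal receptor genes, which belong to sensory neurons. A probe set was called above background in a group when it exceeded the 95th percentile of the receptor probe sets, 33.9 to 48.6 units by array, on all 3 arrays. Of the 56 member probe sets 1 met this in siDNMT1 cells (Oaz3) and 0 in siNT cells, whereas 32.2% of all probe sets met it in siDNMT1 and 32.7% in siNT. Of the receptor probe sets themselves 0 met it in siDNMT1 and 3 in siNT. The median member signal was 9.74, 11.7 and 6.65 units on the siDNMT1 arrays of repeats 1 to 3, and 9.21, 7.99 and 6.22 units on the siNT arrays. The receptor medians were 9.50, 8.91 and 9.99 units on the siDNMT1 arrays and 9.85, 5.77 and 9.95 units on the siNT arrays, so members and receptors lay in the same range. Counted singly, 5, 6 and 2 member probe sets exceeded the receptor level on the siDNMT1 arrays and 0, 1 and 4 on the siNT arrays, and these counts overlap between the groups. They depend on a level that differed by array, in repeat 1 33.9 units for siDNMT1 and 43.2 units for siNT. Of all probe sets 57.0%, 60.5% and 65.5% lay below it on the siDNMT1 arrays and 63.1%, 61.4% and 62.2% on the siNT arrays. In all, 31 of the 42 genes exceeded it on no array. By probe set this was 45 of 56 members, beside 23450 of all 45037 and 70 of the 80 receptor probe sets. Group means under the pseudocount were found for 17 probe sets in siDNMT1 and 19 in siNT, and 20 probe sets for 18 genes (35.7%) had mean signals above the 40th percentile of all probe sets.

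**Figure D1:**
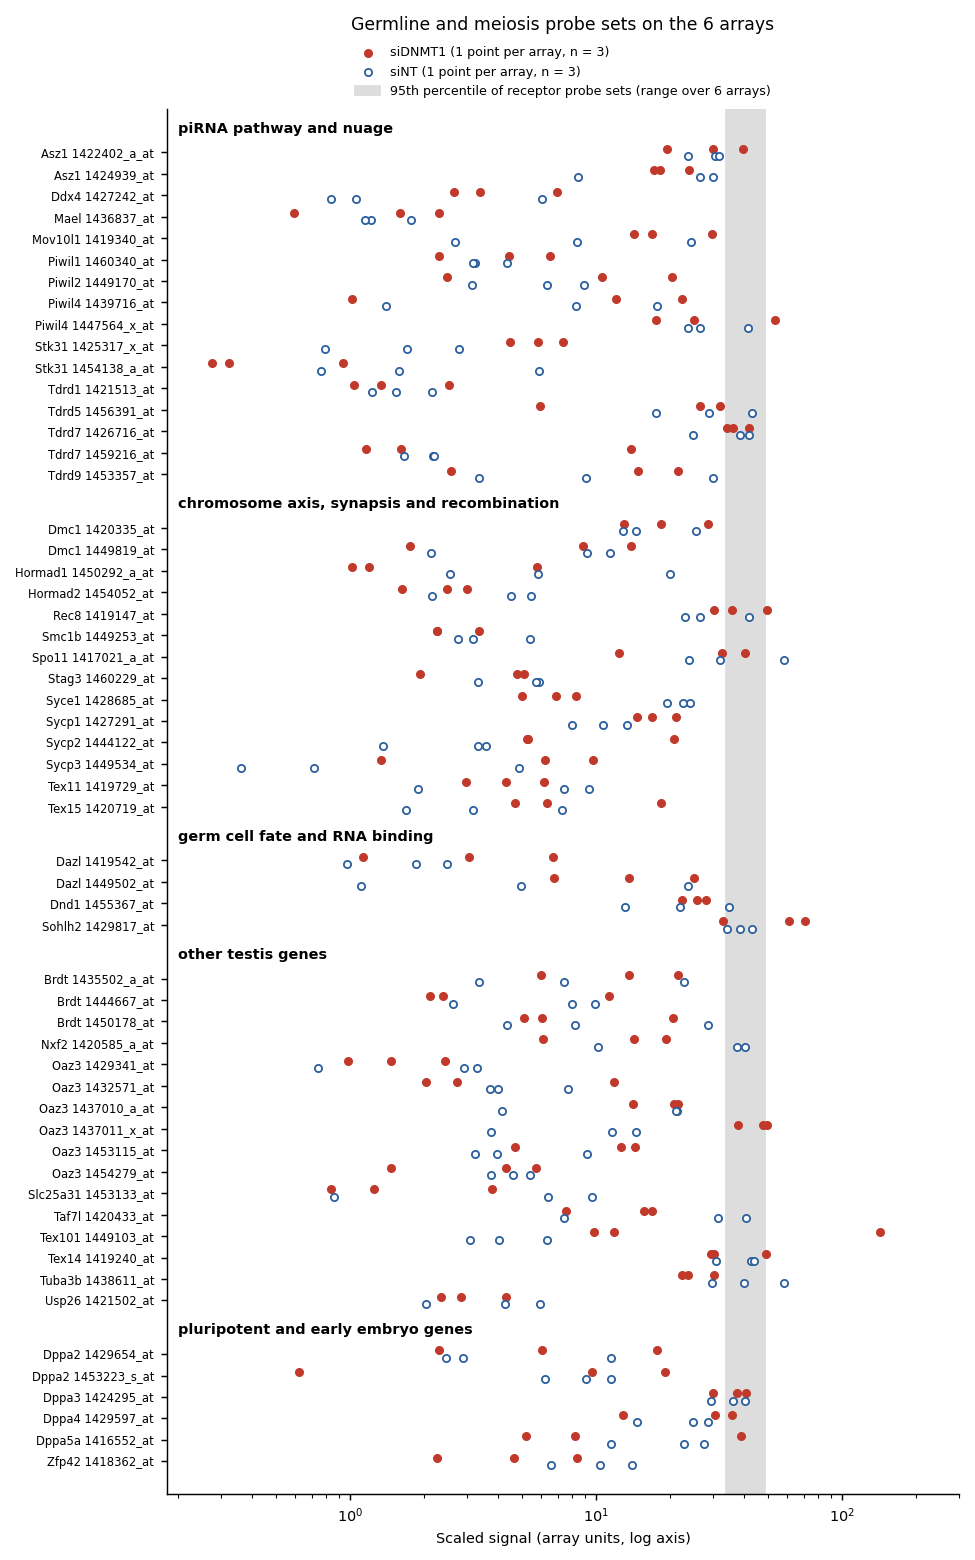
Scaled signal (array units, log axis) of the 56 germline and meiosis probe sets, 1 filled point per siDNMT1 array above and 1 open point per siNT array below, grouped by role. The grey band is the range over the 6 arrays of the 95th percentile of receptor probe sets, 33.9 to 48.6 units. Most points lie left of the band or within it, and Tex101 on 1 siDNMT1 array reached 142 units.

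Differences between the groups were tested with limma over all 45037 probe sets, with the Benjamini-Hochberg adjustment and a threshold of 0.05. No member passed it, and neither did any other probe set (0 called, 0% of the array). With the repeat number as a block 0 members passed, against 1 probe set of the array (0.00222%), that of Ltb. With that block and the dimmest 40% of probe sets left out, 0 members passed among 23 calls (0.0851%). At an unadjusted limma p under 0.05 there were 4 member probe sets, 3 higher and 1 lower, which is 7.14% of the 56 and stands against 4.25% of the array (1.87% higher, 2.38% lower). The block gave 5 such probe sets, 4 higher and 1 lower, against 6.48% of the array (2.58% higher, 3.89% lower).

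The members' differences lay on both sides of 0. Their median difference was 0.01, with 30 probe sets higher and 26 lower, beside a median of -0.03 and 45.8% higher over all probe sets. By repeat the member median was 0.00, 0.20 and -0.11, and the median of all probe sets 0.01, -0.05 and -0.04. Signals were higher in siDNMT1 in 3 of 3 repeats for 9 member probe sets (16.1%) and lower in 3 of 3 for 3 (5.36%), beside 11.8% and 15.9% of the array. The groups did not overlap for 6 member probe sets (10.7%), 5 higher and 1 lower, beside 8.92% of the array (3.92% higher, 5.0% lower). Of these, 4 higher and 1 lower also differed by at least 1.5-fold, a condition met by 3.82% of the array (1.98% higher, 1.84% lower). The unadjusted 95% limma interval of the difference ended below 1, a doubling on this scale, for 32 of the 56 probe sets, and it reached beyond 2 for Oaz3 and Tex101. Over the array the interval ended below 1 for 33913 and reached beyond 2 for 553 of the 45037 probe sets. The pseudocount makes differences of dim probe sets smaller, so for them an interval below 1 does not exclude a doubling of the signal.

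**Figure D2:**
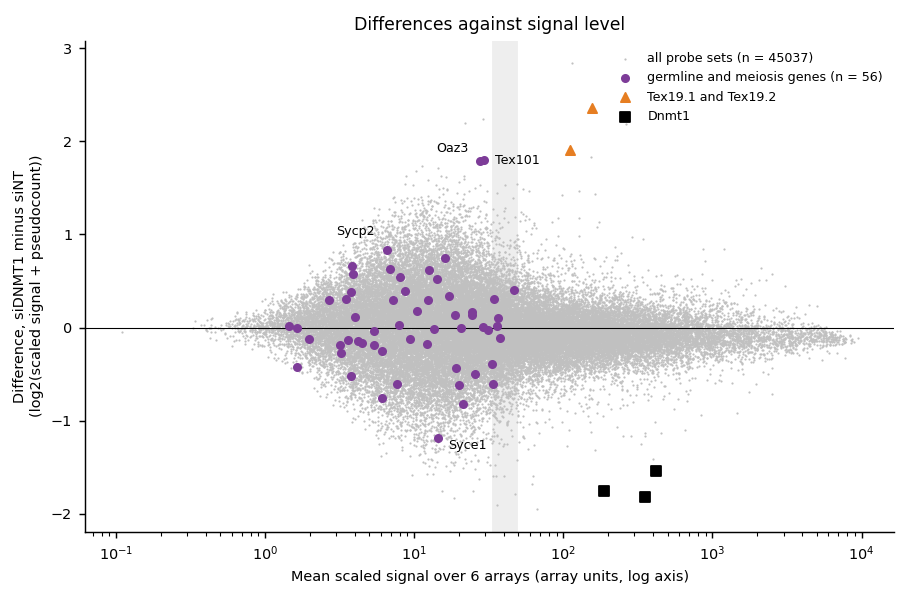
Difference, siDNMT1 minus siNT, on the log2(scaled signal + 5.29) scale, against the mean scaled signal of 6 arrays (array units, log axis). Grey dots are all 45037 probe sets, filled circles the 56 germline and meiosis probe sets, triangles Tex19.1 and Tex19.2 and squares the 3 Dnmt1 probe sets, and the grey band is the receptor level of 33.9 to 48.6 units. The members lie among the dim probe sets on both sides of 0, with Oaz3 and Tex101 uppermost at 1.79 and 1.80 and Syce1 lowest at -1.19.

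Of the 16 probe sets of the piRNA pathway 11 were higher and 5 lower, with a median of 0.06, and none passed the threshold. Ddx4, the vasa RNA helicase that marks germ cells, had 3.38, 2.65 and 6.92 units in siDNMT1 and 1.06, 0.839 and 6.02 units in siNT cells, a difference of 0.31 (SE 0.30). Mael, a piRNA factor of the germ cell nuage, stood at 0.595 to 2.30 units in siDNMT1 and 1.15 to 1.78 units in siNT cells, and Tdrd1, a Tudor protein that binds Piwi proteins, at 1.04 to 2.53 and 1.23 to 2.17 units. These are among the lowest signals of the array, and their differences were 0.02 (SE 0.17) and -0.01 (SE 0.17).

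Stk31, which encodes a Tudor domain protein with a kinase-like region, had 7.34, 5.82 and 4.48 units in siDNMT1 and 1.70, 2.77 and 0.789 units in siNT cells on the first of its probe sets. Affymetrix gives the suffix of that probe set to probes shared between transcripts. The groups did not overlap there, with a difference of 0.67 (SE 0.23, limma unadjusted p = 0.0178, adjusted p = 1.00). On its other probe set the siDNMT1 signals were 0.935, 0.276 and 0.323 units and the siNT signals 5.88, 1.58 and 0.761 units, a difference of -0.42 (SE 0.23), or -0.15 without siNT array 1. The 2 probe sets of the gene thus pointed in opposite directions, both far below the receptor level. Mov10l1, the helicase that passes piRNA precursors to Piwi proteins, had 14.3, 16.9 and 29.6 units in siDNMT1 and 24.4, 8.36 and 2.68 units in siNT cells. Its difference of 0.74 (SE 0.52) came from repeats 2 and 3, while siDNMT1 was lower in repeat 1, and it was 1.25 without siNT array 1 and 0.30 without siNT array 3.

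Among the Piwi genes, which encode the proteins that carry piRNAs, group means were 4.42 units in siDNMT1 and 3.57 units in siNT cells for Piwil1, and 11.1 and 6.12 units for Piwil2. The brighter Piwil4 probe set averaged 32.1 units in siDNMT1 and 30.5 units in siNT cells. Their differences on these probe sets ran from -0.02 to 0.39, and the dimmer Piwil4 probe set was at 0.18. The Tudor genes Tdrd7 (brighter probe set), Tdrd5 and Tdrd9 were at 0.10, -0.50 and -0.01, and the scaffold gene Asz1 at 0.01 and 0.00. Tdrd7, at 37.3 ± 3.96 units in siDNMT1 and 35.1 ± 8.95 units in siNT cells (SD, n = 3), was the brightest member of the pathway, and its dimmer probe set was at 0.38.

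The 14 probe sets of the chromosome axis, synapsis and recombination were divided evenly, 7 higher and 7 lower, with a median of -0.07. Syce1, a protein of the central element of the synaptonemal complex, had 8.32, 5.02 and 6.85 units in siDNMT1 and 19.4, 24.0 and 22.5 units in siNT cells. It was lower in every repeat, with no overlap and a difference of -1.19 (SE 0.35, limma unadjusted p = 0.00754, adjusted p = 1.00), at levels below the receptor limit in both groups. Sycp2, of the lateral elements, had 20.7, 5.24 and 5.32 units in siDNMT1 and 3.57, 1.36 and 3.32 units in siNT cells, a difference of 0.84 (SE 0.38, limma unadjusted p = 0.0546, and 0.0370 with the block). The groups did not overlap, and the highest siDNMT1 value was that of repeat 1, without which the difference was 0.41.

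Sycp1, the transverse filament that bridges the paired chromosomes, was the remaining non-overlapping member, at 21.1, 14.6 and 16.8 units in siDNMT1 and 10.7, 13.4 and 7.96 units in siNT cells. Its difference was 0.52 (SE 0.37), short of 1.5-fold on this scale. Sycp3, the partner of Sycp2, was at 0.58 (SE 0.35), and the HORMA domain genes Hormad1 and Hormad2 at -0.76 (SE 0.43) and -0.27 (SE 0.23). Hormad1 had 1.20, 5.78 and 1.02 units in siDNMT1 and 19.9, 2.54 and 5.83 units in siNT cells, and without siNT array 1 the difference was -0.28. Meiotic cohesin genes differed by 0.31 (Rec8), -0.19 (Smc1b) and -0.16 (Stag3). Spo11, which cuts DNA to start recombination, was at -0.39, the strand exchange enzyme gene Dmc1 at 0.14 and 0.03, the crossover gene Tex11 at -0.19 and Tex15, needed for repair of meiotic breaks, at 0.63 (SE 0.40). Rec8, at 35.8, 49.5 and 30.1 units in siDNMT1 and 26.4, 41.7 and 22.9 units in siNT cells, lay at the edge of the receptor level, and the groups overlapped.

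All 4 probe sets of the germ cell fate genes had higher means in siDNMT1, with a median of 0.35, and all 4 overlapped between the groups. Dazl, an RNA-binding protein of germ cell entry into meiosis, had 13.6, 25.04 and 6.76 units in siDNMT1 and 23.7, 4.96 and 1.11 units in siNT cells on its brighter probe set (difference 0.62, SE 0.58, but 1.23 without siNT array 1 and 0.14 without siNT array 3). On the dimmer one it had 3.06, 6.67 and 1.12 units in siDNMT1 and 0.971, 2.49 and 1.86 units in siNT cells (difference 0.29, SE 0.25, but 0.06 without siDNMT1 array 2 and 0.51 without siDNMT1 array 3). Both probe sets stayed below the receptor level on all arrays. Sohlh2, a transcription factor of spermatogonia and early oocytes, had 32.7, 60.7 and 70.7 units in siDNMT1 and 42.9, 34.1 and 38.6 units in siNT cells. It was the brightest member by its siDNMT1 mean and exceeded the receptor level on 2 siDNMT1 arrays and 0 siNT arrays, with siDNMT1 lower in repeat 1 and a difference of 0.40 (SE 0.31), which was 0.70 without siDNMT1 array 1 and 0.20 without siDNMT1 array 3. Dnd1, an RNA-binding protein of primordial germ cells, was at 0.17 (SE 0.38).

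The other testis genes, 16 probe sets for 9 genes, had 5 higher and 11 lower, with a median of -0.13, and they held the extremes of the whole list. Oaz3 encodes the antizyme of spermatids, which regulates ornithine decarboxylase. On 1 of its 6 probe sets the signals were 38.0, 47.7 and 49.4 units in siDNMT1 and 3.75, 11.6 and 14.5 units in siNT cells. The siDNMT1 arrays were all above their receptor level and the siNT arrays all below, and in repeat 3 the siDNMT1 margin was small, 49.4 against 48.6 units. In repeat 1 the siDNMT1 array had the lowest receptor level of the 6 arrays, 33.9 units. Its signal of 38.0 units lay just below the 60th percentile of all probe sets on that array, 38.3 units. Of all probe sets 1.89% were called above background in siDNMT1 and not in siNT, and 2.42% in siNT and not in siDNMT1. The difference was 1.79 (SE 0.40). Its unadjusted limma p was 0.00124 and its adjusted p 0.935, with 0.141 as the lowest adjusted p over all alternatives, in the fit with the block and the filter. The probe set carries the suffix that Affymetrix gives to probes shared between transcripts. The 5 other Oaz3 probe sets were at 0.54, 0.34, -0.04, -0.12 and -0.14, and the groups overlapped on each. The next brightest, at 21.5, 14.1 and 20.7 units in siDNMT1 and 21.4, 21.2 and 4.13 units in siNT cells, stayed below the receptor level on all arrays.

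Tex101, a surface glycoprotein of germ cells needed for sperm to reach the egg, had 9.81, 142 and 11.9 units in siDNMT1 and 6.30, 3.08 and 4.03 units in siNT cells. The groups did not overlap, but the siDNMT1 value of repeat 2 alone exceeded the receptor level. By repeat the differences were 0.38, 4.14 and 0.88, with a mean of 1.80 (SE 0.77, limma unadjusted p = 0.0408, adjusted p = 1.00). Without siDNMT1 array 2 the difference was 0.73, with an adjusted limma p of 1.00. Repeat 2 was also the repeat with the least Dnmt1 left, 20.2%, and the part of the knockdown depth in this value was not tested.

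**Figure D3:**
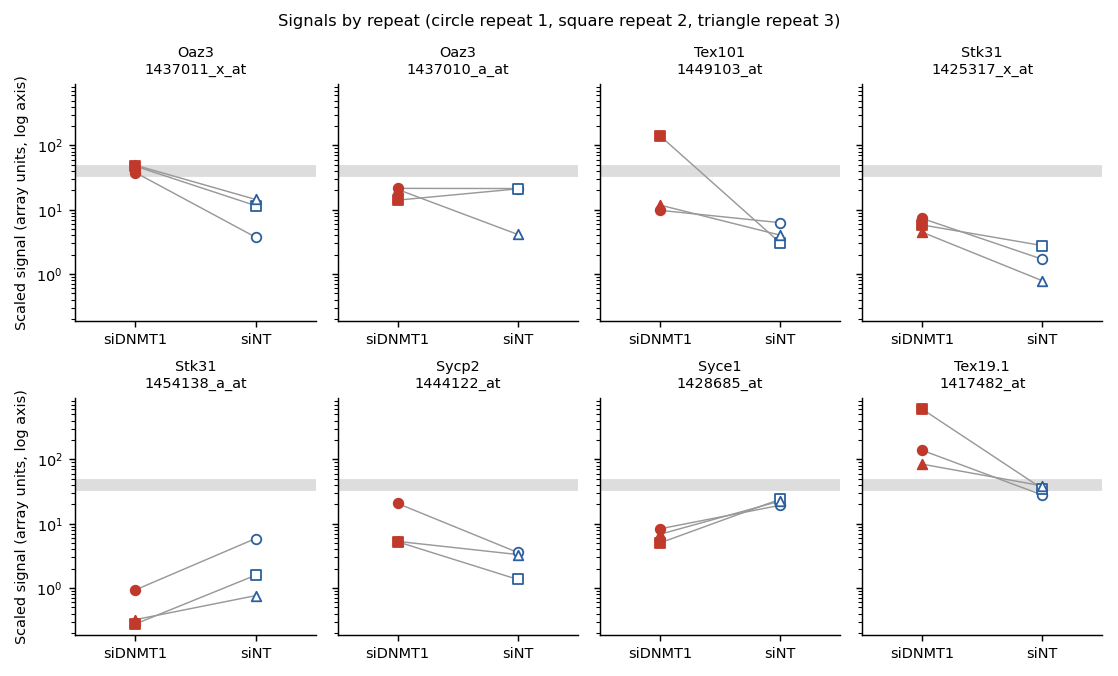
Scaled signal (array units, log axis) in siDNMT1 (left) and siNT (right) arrays of the same repeat, joined by lines, for 7 member probe sets and Tex19.1. The grey band is the receptor level of 33.9 to 48.6 units. The siDNMT1 points of Oaz3 on 1 probe set (38.0 to 49.4 units) reach the band, those of Tex19.1 (84.4 to 606 units) lie above it, that of Tex101 does so in repeat 2, and those of Stk31, Sycp2 and Syce1 stay below it.

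On probe sets of their own the remaining testis genes lay lower or level. Tuba3b, a testis alpha-tubulin, had 23.7, 30.2 and 22.3 units in siDNMT1 and 39.97, 29.5 and 58.1 units in siNT cells, a difference of -0.60 (SE 0.33), or -0.38 without siNT array 3. The annotation gives 2 further probe sets to Tuba3a and Tuba3b together, and both are bright. The brighter had 387, 564 and 507 units in siDNMT1 and 317, 575 and 469 units in siNT cells, a difference of 0.12 (SE 0.22). The other had 311, 349 and 273 units in siDNMT1 and 248, 223 and 202 units in siNT cells. Its groups did not overlap, with siDNMT1 higher, as for 3.92% of the array. Its difference was 0.46 (SE 0.15, limma unadjusted p = 0.0137), short of 1.5-fold. These shared probe sets belong to no single gene and were not counted. Nxf2, an mRNA export factor gene on the X chromosome, was at -0.82 (SE 0.51), the TFIID subunit gene Taf7l at -0.61 (SE 0.53), the germ cell ADP/ATP carrier gene Slc25a31 at -0.52 (SE 0.34), Tex14 of the bridges between germ cells at -0.12 (SE 0.31) and the deubiquitinase gene Usp26 at -0.13 (SE 0.25). The 3 probe sets of Brdt, a bromodomain protein that reads acetylated histones in spermatids, were at 0.30, -0.18 and -0.25. None of these testis genes passed the threshold.

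The 6 probe sets of pluripotent and early embryo genes had 3 higher and 3 lower, with a median of -0.05. Dppa3, which guards maternal methylation in the egg, had 29.8, 37.3 and 40.7 units in siDNMT1 and 36.2, 29.4 and 40.4 units in siNT cells, a difference of 0.02 (SE 0.29). Dppa2 and Dppa4 are DNA-binding partners in embryonic stem cells. The Dppa2 probe sets were at 0.30 (SE 0.46) and -0.12 (SE 0.50), and the first had 17.8, 6.05 and 2.30 units in siDNMT1 and 2.46, 11.5 and 2.89 units in siNT cells. Dppa4 was at 0.13 (SE 0.42). Dppa5a, an RNA-binding protein of stem cells, had 5.19, 38.8 and 8.22 units in siDNMT1 and 22.9, 27.4 and 11.5 units in siNT cells (difference -0.44, SE 0.56, but -0.03 without siDNMT1 array 1 and -1.07 without siDNMT1 array 2). Zfp42, also called Rex1, had 2.25, 8.37 and 4.66 units in siDNMT1 and 10.4, 6.57 and 14.0 units in siNT cells (difference -0.60, SE 0.35, or -0.39 without siDNMT1 array 1). Every gene of this group overlapped between the conditions and lay below the receptor level on all 6 arrays.

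Genes with and without these promoter features had medians close to 0. The 15 genes with an E box in the window had a median difference of 0.02 (-0.82 to 0.74) on their brightest probe sets, and the 17 without had -0.02 (-1.19 to 1.80). The 23 genes with a CpG ratio of at least 0.6 were at 0.01 and the 9 with a lower ratio at -0.01. The median signal of genes with the E box was 5.77 units in siDNMT1 and 5.63 units in siNT cells, and that of genes without it 21.5 and 22.0 units. These are descriptions of 32 genes, and most of their signals are at background.

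**Figure D4:**
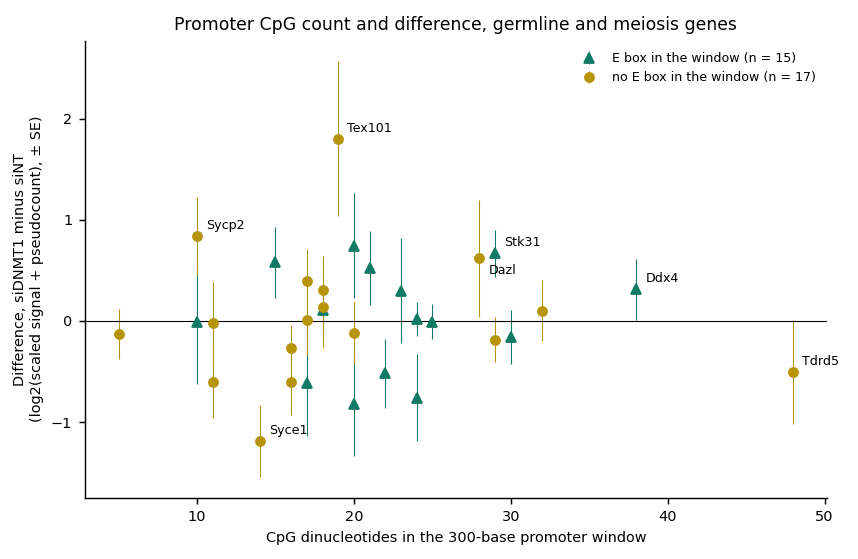
CpG dinucleotides in the 300-base promoter window against the difference, siDNMT1 minus siNT, on the log2(scaled signal + 5.29) scale, for the brightest probe set of each of 32 member genes, with bars of ± SE (n = 3 arrays per group). Triangles are the 15 genes with an E box and circles the 17 without. The values scatter around 0 over the whole range of CpG counts, with Tex101 at 19 CpG uppermost and Syce1 at 14 CpG lowest.

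Other germline genes, from 5 lists written for this comparison, gave 89 measured genes of 101, with the brightest probe set standing for a gene. None passed the limma threshold without the block. Unadjusted limma p values under 0.05 numbered 4 higher and 3 lower, beside 1.87% and 2.38% of all probe sets. Above background were 16 genes in siDNMT1 and 15 in siNT, beside 32.2% and 32.7% of all probe sets. The counts are of genes by their brightest probe set, a unlike unit from the probe sets of the array. Among the 89 genes Tex19.1 and Tex19.2, neighbouring paralogs of germ cells, placenta and pluripotent cells, had the largest differences. Tex19.1 had 139, 606 and 84.4 units in siDNMT1 and 27.9, 35.1 and 38.7 units in siNT cells, a difference of 2.35 (SE 0.56). Tex19.2 had 122, 347 and 85.9 units in siDNMT1 and 31.4, 42.9 and 38.8 units in siNT cells, a difference of 1.90 (SE 0.42). Both were above the receptor level on the 3 siDNMT1 arrays. Tex19.1 was below it on all siNT arrays and Tex19.2 on those of repeats 1 and 3, and both were highest in repeat 2, as Tex101 was. Tex19.2 rose by the fit with the block and the filter (limma adjusted p = 0.0430), where Tex19.1 missed the threshold (adjusted p = 0.0701). Rhox5, a homeobox gene of the same list chosen here after its values were seen, was already at 5836 ± 650 units in siNT cells, beside 5574 ± 1015 units in siDNMT1 cells (SD, n = 3).

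In the list of 11 measured piRNA genes outside the members 5 were higher and 6 lower (median -0.11), with Pnldc1 at -0.81 (SE 0.49), Gtsf1 at 0.88 (SE 0.55) and Henmt1 at 0.62 (SE 0.40). Of 24 meiosis genes 11 were higher and 13 lower (median -0.03), with Mei4 at -0.59 (SE 0.24), Terb1 at 0.63 (SE 0.31) and Tex12 at 0.41 (SE 0.27). Of 32 spermatid genes 17 were higher and 15 lower (median 0.00). Prm2, a protamine that packs sperm DNA, was at -1.01 (SE 0.33), the sperm surface gene Adam2 at 1.10 (SE 0.43) and the testis linker histone gene Hist1h1t at 1.13 (SE 0.47). Of 16 oocyte genes 6 were higher and 10 lower (median -0.10), with Gdf9 at -0.56 (SE 0.25), Bmp15 at 0.75 (SE 0.40) and Lhx8 at 0.33 (SE 0.19). Rhox6 was at 0.29 (SE 0.24). Further probe sets disagreed in sign for Bmp15 (-0.52 and 0.54). None of these values passed the threshold in the fits with or without the block. Several genes of these lists, chosen here after their values were seen, were bright in both groups. Ddx25, a helicase of spermatids, had 316 ± 61.5 units in siDNMT1 and 339 ± 20.7 units in siNT cells, Syce2 of the central element 289 ± 64.5 and 293 ± 49.4 units, and Psmc3ip, a cofactor of strand exchange, 335 ± 28.8 and 378 ± 43.4 units (SD, n = 3 each).

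Most genes that keep the germline silent were above background by their brightest probe set, 19 of 22 in siDNMT1 and 21 of 22 in siNT cells. Of all probe sets 32.2% and 32.7% were. The lowest group means of the list were 43.3 units in siDNMT1 and 38.0 units in siNT cells, within the range of the receptor level. Apart from Dnmt1, which passed in the fit with the block and the filter, none did so in the fits with or without the block, with Hells, a chromatin remodeller, at -0.43 (SE 0.30) and Setdb1, an H3K9 methyltransferase, at -0.22 (SE 0.16). Of 20 pluripotency genes 11 were higher and 9 lower (median 0.05), with Klf2 at 0.55 (SE 0.16), Fgf4 at -0.42 (SE 0.25) and Tfcp2l1 at -0.58 (SE 0.43), all on the brightest probe set. Further probe sets pointed the other way for Hells (0.34), Fgf4 (0.84) and Tfcp2l1 (0.07). Pomc, the hormone precursor gene of corticotrophs, differed by -0.15 (SE 0.27).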

How the data were processed

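Arrays of 3 siDNMT1 and 3 siNT cultures were grouped by the labels. The deposited table gives 1 linear intensity per probe set and array, made by the authors with GCOS per the submitters' processing notes. Which GCOS algorithm and scaling target were used is not stated in those notes, and no detection calls were used here. Each array was scaled to a common median after leaving out 64 control probe sets, and the pseudocount was 5.29, the 20th percentile of the table. Symbols came from the platform annotation, whose 34945 probe sets with 1 symbol were checked against a gene table of GRCm38.p6, which changed 0 symbols. Probe sets with several symbols (932) were not named.

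Groups were compared with limma 3.58.1 in R 4.3.3 (lmFit, eBayes with a trend, two-sided, Benjamini-Hochberg over 45037 probe sets). All probe sets were tested because dim members were included. The fit was tested on simulated data with known changes. The labels describe 3 independent rounds. Over the 27022 probe sets kept by the filter, arrays that share a number deviated together from their groups (r = 0.173, 0.231 and 0.257). Other pairs had r of -0.179 to -0.0283. Deviations from a group mean sum to 0, so the negative values follow from the positive ones and add no support of their own. Over all probe sets the same-numbered values were 0.0897, 0.148 and 0.153. By the labels the repeat number was taken to mark a shared round, and values of the fit with it as a block are given where they differ in call. Without the block the p-values measure the spread between the arrays of a group, each from its own round. With the block they measure how the difference between the groups varied from round to round. In both fits the number of arrays limits the precision.

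Values on every array are given for members past the threshold, members without overlap and a 1.5-fold difference, members above background, and the 3 smallest p-values of each role. From each further list the 3 genes with the smallest p were named, beside Dnmt1 and Pomc. Ddx4, Mael, Tdrd1, Tdrd7, Sycp1, Rec8, Dppa3 and the second Oaz3 probe set were added after their values were seen. Members and lists were chosen with earlier results of these data known.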

Additional observations from a re-analysis of the deposited data

How the results depend on the processing

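The count of 0 member probe sets past the threshold was the same under all 18 alternatives that were fitted, and the lowest adjusted limma p of any member named was 0.141. Over the whole array the count was 0 in the fit as reported, 1 with trimmed mean scaling, 1 with the replicate block, 23 with the replicate block and the 40th percentile filter, and 0 under every other alternative, the block joined with trimmed mean scaling or with quantile normalization and the filter alone included. In the fit with block and filter the difference of Dnmt1 stayed -1.54 and passed (limma adjusted p = 0.0211, against 0.446 without either, 0.246 with the block alone and 0.151 with the filter alone), and 1 gene of the other germline lists passed, Tex19.2. The cause was not tested. The replicate block changed no call among the members. The median difference of the members ran from -0.01 to 0.09 when 1 array was left out and from -0.00 to 0.04 otherwise. Non-overlapping member probe sets numbered 2 with the filter, which leaves 20 of 56, and 9 to 16 without 1 array, siNT array 2 giving the most, since fewer arrays have to be parted. The share of all probe sets was not counted under these settings. These counts therefore cannot be set beside the 8.92% of the array in the main fit. Member probe sets above background numbered 2 with the 90th receptor percentile (Oaz3 and Sohlh2), 0 with the 60th percentile of all probe sets, and 1 to 2 without 1 array, where Sohlh2, Rec8 or Tex14 joined Oaz3. Of 15 named member probe sets 14 kept their sign under every alternative fitted for them, and Dppa2 at 0.30 turned to -0.14 without siDNMT1 array 1. Sizes moved more than signs. With pseudocounts of 1 and 32 the differences were 2.23 and 0.88 for Oaz3, 2.35 and 0.91 for Tex101, 1.40 and 0.27 for Sycp2, 1.36 and 0.17 for Stk31, and -1.59 and -0.48 for Syce1. Over all alternatives Mov10l1 ran from 0.27 to 1.25, Dazl on its brighter probe set from 0.14 to 1.23, and Dppa5a from -1.07 to -0.03. Of the 56 member probe sets 45 were above the receptor level on no array, beside 23450 of all 45037 probe sets. This limits how far the sizes of the members' differences can be read.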
